A study of Homo sapiens with 14 samples.

Results

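The 10 genes described here encode heat shock proteins and chaperones: HSPD1, HSPE1 and HSPA9 of mitochondria, and HSP90AA1, HSP90AB1, HSPA8, HSPA4, HSPH1, DNAJA1 and BAG3 of the cytosol. They were taken by symbol from a table of 61533 genes, and all 10 were among the 16056 genes that passed the filter on low counts. RNA was sequenced from SH-EP cells, a neuroblastoma line long grown in culture. Every library used here came from SH-EP cells labelled n-Myc, either a SPARK-ON line or a control line without SPARK-ON. Per the series design, the SPARK-ON cells are a single clone, and lenalidomide brings their n-Myc to phase separate while its concentration stays the same. There were 3 SPARK-ON libraries with lenalidomide, 3 SPARK-ON libraries in DMSO, 2 control libraries with lenalidomide and 3 control libraries in DMSO. Lenalidomide binds cereblon, the substrate receptor of a ubiquitin ligase. DMSO is the solvent, and no dose or duration of treatment is known here. Any difference between the lines is therefore a difference between 1 clone and its control, and SPARK-ON itself and clonal differences cannot be told apart.

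Chaperones bind unfolded or partly folded proteins and help them reach or keep their shape. In the cytosol, HSP70 proteins such as HSPA8 receive clients from J-domain partners and pass some of them to HSP90, while exchange factors reset the HSP70 cycle. Mitochondria hold their own set: HSPA9 takes up imported proteins, and a barrel of HSPD1 closed by a lid of HSPE1 encloses them for folding. Heat shock factor 1 (HSF1) drives many of these genes under stress through repeated blocks of a short motif, and MYC family proteins bind the E-box, CACGTG. HSPD1 and HSPE1 lie head to head on chromosome 2, and both are among the genes reported to respond to MYC.

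The stretches before the annotated transcript starts were searched for these motifs, because the 10 genes are often grouped by the factors thought to drive them. The sequences are from RefSeq on GRCh38.p14, which held 14 starts for the 10 genes, and the search covered 250 bases before each start on both strands. Each stretch below is at most 30 bases long, reads 5′ to 3′ on the gene's strand, and has the motif match in capitals.
HSPD1, start 2, heat shock element, chr2:197500062-197500090 (minus strand): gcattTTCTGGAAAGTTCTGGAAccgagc
HSP90AA1, start 2, heat shock element, chr14:102087104-102087133 (minus strand): cTTCCGGAAGGTTCgggaggcTTCTGGAAa
HSP90AB1, start 3, heat shock element, chr6:44247770-44247798 (plus strand): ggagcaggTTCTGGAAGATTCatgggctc
HSPA8, heat shock element, chr11:123062171-123062199 (minus strand): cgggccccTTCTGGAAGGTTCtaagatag
DNAJA1, shorter heat shock match, chr9:33025064-33025093 (plus strand): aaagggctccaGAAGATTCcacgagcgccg
HSPE1, E-box, chr2:197500345-197500374 (plus strand): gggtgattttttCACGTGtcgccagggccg
HSPA9, E-box, chr5:138575403-138575432 (minus strand): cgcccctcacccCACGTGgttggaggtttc

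The heat shock element of 3 blocks, GAANNTTCNNGAA or TTCNNGAANNTTC, was found in 4 of the 14 windows, 1 each of HSPD1, HSP90AA1, HSP90AB1 and HSPA8, and in 0.441% of all 35116 promoter windows. HSP90AB1 and HSPA8 each had a further match, 112 and 230 bases before their starts. For HSPD1 the run of capitals above holds 2 overlapping matches, 245 and 240 bases before the start. The 2-block form, GAANNTTC or TTCNNGAA, lies inside each 3-block match. It was also found outside the 3-block match of HSP90AA1, 68 bases before the start, as the later run of capitals above. For DNAJA1 it was found alone. The 2-block form was present in 5 of the 14 windows and in 11.6% of all windows. The E-box CACGTG, which reads the same on both strands, was found in 3 of the 14 windows, 1 each of HSPD1, HSPE1 and HSPA9, the mitochondrial genes, and in 6.34% of all windows. HSPD1 and HSPE1 share a single E-box, which lies 88 bases before an HSPD1 start and 22 bases before the HSPE1 start. CCAAT or ATTGG was found in 2 of the 14 windows, of HSP90AA1 and HSPA8, and in 32% of all windows. The windows of HSPA4, HSPH1 and BAG3 held none of these letters. A match of letters is a description and does not show that a factor binds there.

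**Figure D1:**
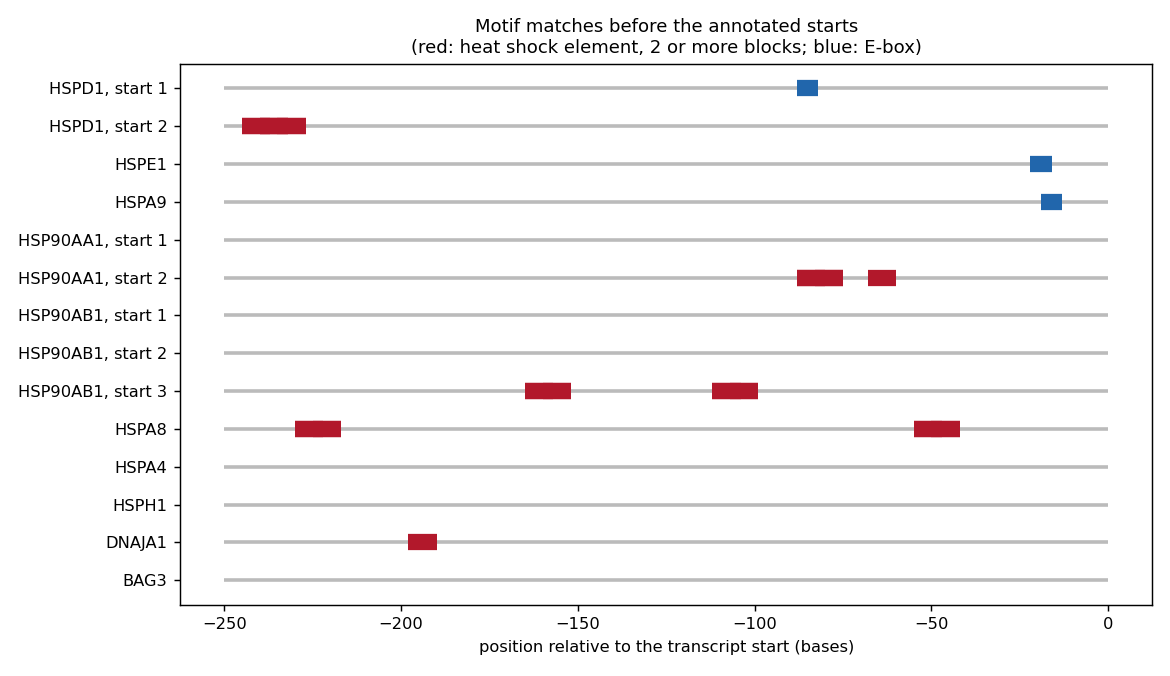
Matches to the heat shock element (red, 2 or more blocks) and the E-box (blue) over the 250 bases before each annotated start, with the start at 0 on the axis in bases. Red marks stand in the rows of HSPD1, HSP90AA1, HSP90AB1, HSPA8 and DNAJA1, and blue marks in those of HSPD1, HSPE1 and HSPA9.

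Library totals ran from 6614671 counts, in SPARK-ON lenalidomide replicate 3, to 21511684, and the next lowest was 14647340. Control DMSO replicate 1 stood apart from its group: its counts differed from those of replicates 2 and 3 by a chi-square per degree of freedom of 29.4 and 25.1, against 4.82 between those replicates. The 2 control lenalidomide libraries differed by 14.8, whereas pairs of SPARK-ON libraries in a group differed by 2.42 to 3.31. No pair of replicates agreed within sampling noise. Of 7 mesenchymal neuroblastoma markers, the state described for SH-EP, all were detected, with VIM between 501 and 1361 CPM (read counts relative to the scaled library size) and CD44 between 484 and 1196.5 CPM. Among adrenergic markers, PHOX2A and ISL1 had 0 counts in every library, HAND2, DBH and TH reached at most 1.33 CPM, and GATA3 stood between 4.74 and 8.73 CPM. Markers of leukocytes, epithelium, endothelium and hepatocytes stayed at or below 2.06 CPM. MYCN averaged 2508 ± 101 CPM in SPARK-ON cells with lenalidomide, 2277 ± 109 in SPARK-ON cells in DMSO, 2546 ± 305 in control cells with lenalidomide and 2426 ± 292 in control cells in DMSO (SD, n = 3, 3, 2 and 3). It passed in no comparison, with adjusted p between 0.404 and 1. MYC was low, with group means between 3.48 and 7.22 CPM, and with lenalidomide it was higher in SPARK-ON than in control cells (log2 change 1.02, SE 0.26, adjusted p = 0.0042, edgeR). In that comparison 39.4% of all genes tested passed. Between the lines in DMSO, MYC had a log2 change of 0.42 (SE 0.22, adjusted p = 0.149, edgeR). It did not pass for lenalidomide over DMSO in either line, or in the difference between those responses.

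Levels were set side by side between genes per kilobase of exon, with all annotated exons of a gene merged. The order therefore depends on the annotated length, and which transcripts these cells make is not known here. In CPM alone, HSPA8 (3122) stood above HSP90AB1 (2522), and HSPA9 (1249) above DNAJA1 (636). Per kilobase, HSP90AA1 had the highest mean level over the 11 libraries, 985 ± 71.5 CPM per kb. HSP90AB1 followed with 846 ± 97.4, HSPA8 with 644 ± 50.8 and HSPD1 with 425 ± 32.5 CPM per kb. HSP90AA1 and HSP90AB1, the stress-responsive and the constitutive cytosolic HSP90, overlapped in range, with 861 to 1092 and 725 to 980 CPM per kb. Below these stood DNAJA1 (233 ± 12.1 CPM per kb), HSPA9 (151 ± 16.9), HSPA4 (97.5 ± 7.91), HSPH1 (79.7 ± 8.16), BAG3 (60.4 ± 10.6) and HSPE1 (21.3 ± 3.24). HSPA4 and HSPH1 overlapped in range, as did HSPH1 and BAG3, whereas no library of HSPE1 reached the lowest of BAG3. In CPM, 8 of the 10 genes stood above the 98th percentile of the tested genes, BAG3 at the 92.5th and HSPE1 at the 66.6th.

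The level of HSPE1 is uncertain. Its exons share 192 bases with the readthrough gene HSPE1-MOB4 on the same strand and 281 bases with HSPD1 on the opposite strand, in all 23.9% of its exon length. HSPE1-MOB4 was listed with 0 counts in every library, and how reads in shared exons were assigned is not known here. HSPE1 also has 26 processed pseudogenes in the table, which together held counts equal to 1.76% of its own. The same share was 0.263% for HSPD1 with 18 pseudogenes and 0.0313% for HSPA8 with 17. HSPE1 had 306 to 975 counts per library, against 12218 to 39765 for HSPD1.

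**Figure D2:**
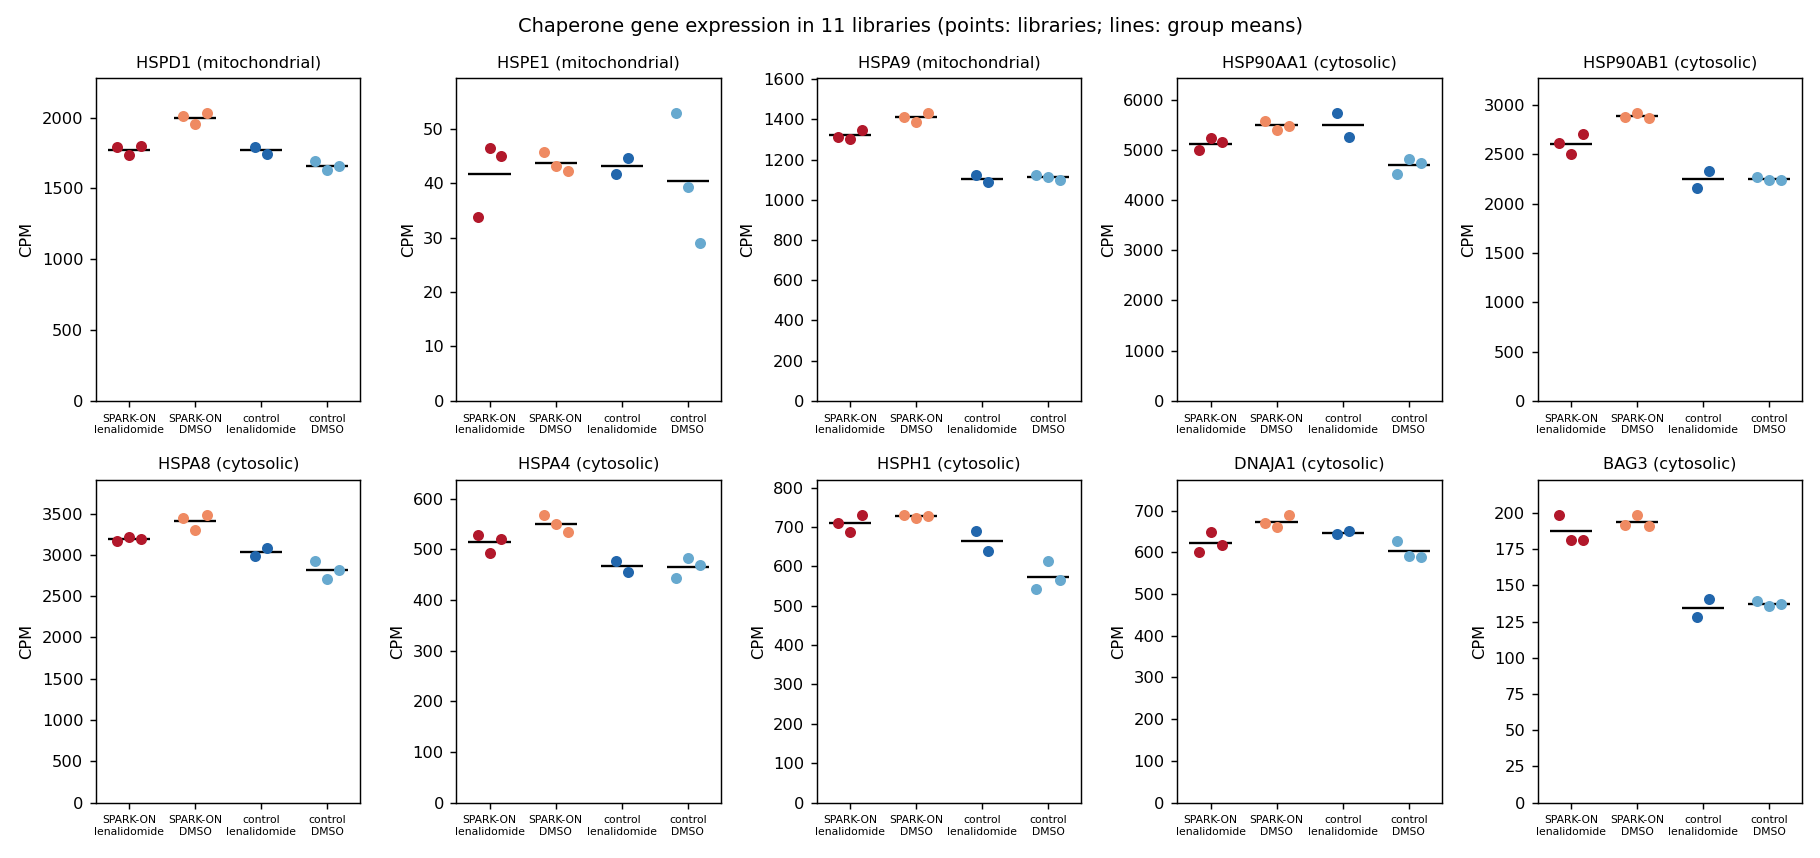
CPM of each of the 10 genes (vertical axes from 0) in the 11 libraries, by line and treatment, with points for libraries and lines for group means. For 9 genes, HSPE1 excepted, the 3 SPARK-ON DMSO points lie above all 3 control DMSO points.

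Among the mitochondrial genes, HSPD1, the HSP60 chaperonin, lies at chr2:197486581-197516737 on the minus strand (GRCh38). It stood at 1789, 1738 and 1797 CPM in SPARK-ON cells with lenalidomide, against 2009.7, 1956 and 2033 CPM in SPARK-ON cells in DMSO. Control cells had 1796 and 1743 CPM with lenalidomide, against 1693, 1629.8 and 1658 CPM in DMSO. SPARK-ON cells in DMSO were thus above every other library, and the other groups lay between 1629.8 and 1797 CPM. HSPA9, mitochondrial HSP70 or mortalin (chr5:138553756-138575724, minus strand), was at 1313, 1304 and 1346 CPM in SPARK-ON cells with lenalidomide, against 1411, 1388.5 and 1431.5 CPM in SPARK-ON cells in DMSO. Control libraries had 1122 and 1086.5 CPM with lenalidomide, against 1125.5, 1114 and 1099 CPM in DMSO. All 6 SPARK-ON libraries were above all 5 control libraries for HSPA9. HSPE1, the HSP10 lid (chr2:197499994-197503457, plus strand), was at 33.8, 46.5 and 45 CPM in SPARK-ON cells with lenalidomide, against 45.7, 43.2 and 42.2 CPM in SPARK-ON cells in DMSO. In control cells it was at 41.7 and 44.6 CPM with lenalidomide, against 52.9, 39.3 and 29.1 CPM in DMSO, so all 4 groups overlapped.

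Of the cytosolic HSP90 genes, HSP90AA1 (chr14:102080738-102139699, minus strand) was at 4990.1, 5228 and 5151 CPM in SPARK-ON cells with lenalidomide, against 5571, 5399.5 and 5481 CPM in SPARK-ON cells in DMSO. Among control libraries it was at 5732 and 5252 CPM with lenalidomide, against 4521, 4807 and 4737.5 CPM in DMSO. Control cells in DMSO were therefore the lowest group, and the control lenalidomide libraries were both above all 3 SPARK-ON lenalidomide libraries. With lenalidomide, 29.3% of all genes separated the lines in this direction, so such a separation was common. HSP90AB1 (chr6:44246166-44253888, plus strand) was at 2619, 2500.4 and 2709 CPM in SPARK-ON cells with lenalidomide, against 2883, 2921 and 2865.5 CPM in SPARK-ON cells in DMSO. In control cells it was at 2160.2 and 2337 CPM with lenalidomide, against 2267, 2237 and 2242 CPM in DMSO. For HSP90AB1 all SPARK-ON libraries were above all control libraries, and the control groups overlapped.

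In the HSP70 system, HSPA8, the constitutive cytosolic HSP70 (chr11:123057489-123063230, minus strand), was at 3172, 3220.5 and 3191 CPM in SPARK-ON cells with lenalidomide, against 3443, 3299 and 3488 CPM in SPARK-ON cells in DMSO. Control cells had 2993 and 3083 CPM with lenalidomide, against 2926, 2709 and 2815 CPM in DMSO. The 4 groups did not overlap for HSPA8, with SPARK-ON in DMSO highest and control in DMSO lowest. HSPH1 (chr13:31134974-31162388, minus strand), an HSP110 exchange factor for HSP70, was at 709.9, 686.5 and 731 CPM in SPARK-ON cells with lenalidomide, against 731, 722 and 729 CPM in SPARK-ON cells in DMSO. The control line had 689 and 639.8 CPM with lenalidomide, against 543, 613 and 566 CPM in DMSO. The control DMSO libraries of HSPH1 were below every other library, whereas the SPARK-ON groups overlapped.

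HSPA4 (chr5:133051962-133106449, plus strand), the other HSP110 member, averaged 514 ± 19.4 CPM in SPARK-ON cells with lenalidomide and 551 ± 16.9 CPM in SPARK-ON cells in DMSO (SD, n = 3 each). Control cells averaged 467 ± 14.4 CPM with lenalidomide and 465 ± 20.2 CPM in DMSO (SD, n = 2 and 3), and these groups overlapped. DNAJA1 (chr9:33025211-33039907, plus strand), a J-domain partner of HSPA8, averaged 623 ± 24.3 CPM in SPARK-ON cells with lenalidomide and 674 ± 15.2 CPM in SPARK-ON cells in DMSO (SD, n = 3 each). It averaged 647 ± 4.71 CPM in control cells with lenalidomide and 603 ± 20.9 CPM in control cells in DMSO (SD, n = 2 and 3). Its 11 libraries spanned 589.6 to 690.4 CPM, the narrowest range relative to its level among the 10 genes. BAG3 (chr10:119651370-119677819, plus strand), an exchange factor that links HSP70 to autophagy, was at 198.8, 181.6 and 181.5 CPM in SPARK-ON cells with lenalidomide, against 191.5, 198.7 and 190.9 CPM in SPARK-ON cells in DMSO. The control line had 128.5 and 140.5 CPM with lenalidomide, against 139.3, 135.9 and 137.2 CPM in DMSO. BAG3 thus separated the lines completely and overlapped between treatments in each line.

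SPARK-ON cells in DMSO were set against control cells in DMSO to compare the lines without lenalidomide. All 7 cytosolic genes and 2 of the 3 mitochondrial genes were higher in SPARK-ON cells, which made 9 of 10 at an adjusted p below 0.05. Over all genes tested, 41.6% passed in either direction and 21.1% as higher, so a call in this comparison was common. The same 9 genes did not overlap between the groups, as did 26.3% of all genes in the higher direction. The median log2 change of the 10 genes was 0.27, against 0.011 over all genes tested.

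BAG3 had the largest change of the 10, a log2 change of 0.49 (SE 0.068, adjusted p = 1.14e-05, edgeR quasi-likelihood test). HSP90AB1 rose with a log2 change of 0.36 (SE 0.056, adjusted p = 3.91e-05). HSPA9 rose with 0.34 (SE 0.055, adjusted p = 5.93e-05), and HSPH1 also with 0.34 (SE 0.064, adjusted p = 0.000288). HSPA8, HSPD1, HSPA4 and HSP90AA1 had log2 changes of 0.28, 0.27, 0.24 and 0.23, with adjusted p between 0.000449 and 0.00435. DNAJA1 had the smallest change that passed, 0.16 (SE 0.060, adjusted p = 0.0405). Its call was lost without any of 5 single libraries, all but control DMSO replicate 1, with adjusted p up to 0.135. HSPE1 had a log2 change of 0.11 (SE 0.157, adjusted p = 0.599), and without control DMSO replicate 1 it was 0.35 (adjusted p = 0.0206). Without control DMSO replicate 3 its sign turned, to -0.079 (adjusted p = 0.684), so its change hung on single libraries. Scaling by library size alone kept the same 9 calls, but it moved the median of all genes to 0.102 and the split of all calls to 4262 higher and 2547 lower, against 3395 and 3280. The summed level of the 7 mesenchymal markers ran from 1283 to 1332.5 CPM in SPARK-ON cells in DMSO, against 2559 to 2766 CPM in control cells in DMSO. VIM (501 to 1361 CPM over all libraries) and CD44 (484 to 1196.5 CPM) made up most of this sum. It therefore says little about the other markers, such as YAP1 (62.7 to 84.1 CPM) and FOSL1 (42.5 to 62.8 CPM). The part of the markers in these differences was not tested. In bulk RNA, fewer cells of a type and less RNA per cell cannot be told apart.

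SPARK-ON cells with lenalidomide were then set against control cells with lenalidomide. BAG3 (log2 change 0.48, SE 0.078, adjusted p = 8.04e-05), HSPA9 (0.26, SE 0.062, adjusted p = 0.00262) and HSP90AB1 (0.21, SE 0.063, adjusted p = 0.0108) were higher in SPARK-ON cells. These were 3 of the 10 genes, where 39.4% of all genes tested passed in either direction and 19.7% as higher. Without overlap between the groups, 5 of the 10 genes were higher in SPARK-ON cells and 1, HSP90AA1, was lower. Over all genes tested these shares were 30.4% higher and 29.3% lower. HSPD1 had a log2 change of 0.0043 (adjusted p = 0.962), with 1775 ± 32.3 CPM in SPARK-ON cells and 1769 ± 37.7 CPM in control cells (SD, n = 3 and 2). HSP90AA1 had a negative change, -0.10 (SE 0.060, adjusted p = 0.202), with 5123 ± 121 CPM in SPARK-ON cells and 5492 ± 339.8 CPM in control cells (SD, n = 3 and 2). HSPE1, HSPA8, HSPA4, HSPH1 and DNAJA1 had log2 changes between -0.06 and 0.14, with adjusted p between 0.128 and 0.829. The call for HSP90AB1 was lost without control lenalidomide replicate 1 (0.16, adjusted p = 0.108). With library size alone, HSPA8, HSPA4 and HSPH1 also passed, which made 6 genes, and the median of all genes was 0.121, against 0.015 with the scaling used here. The summed mesenchymal markers ran from 1349 to 1444 CPM in SPARK-ON cells with lenalidomide, against 2695 to 2728 CPM in control cells with lenalidomide. Most of this sum was again VIM and CD44, and the part of the markers was not tested. Library size alone also turned HSPE1, HSP90AA1 and DNAJA1 positive, at 0.049, 0.0039 and 0.050. All calls then split into 4045 higher and 2396 lower, against 3165 and 3169.

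**Figure D3:**
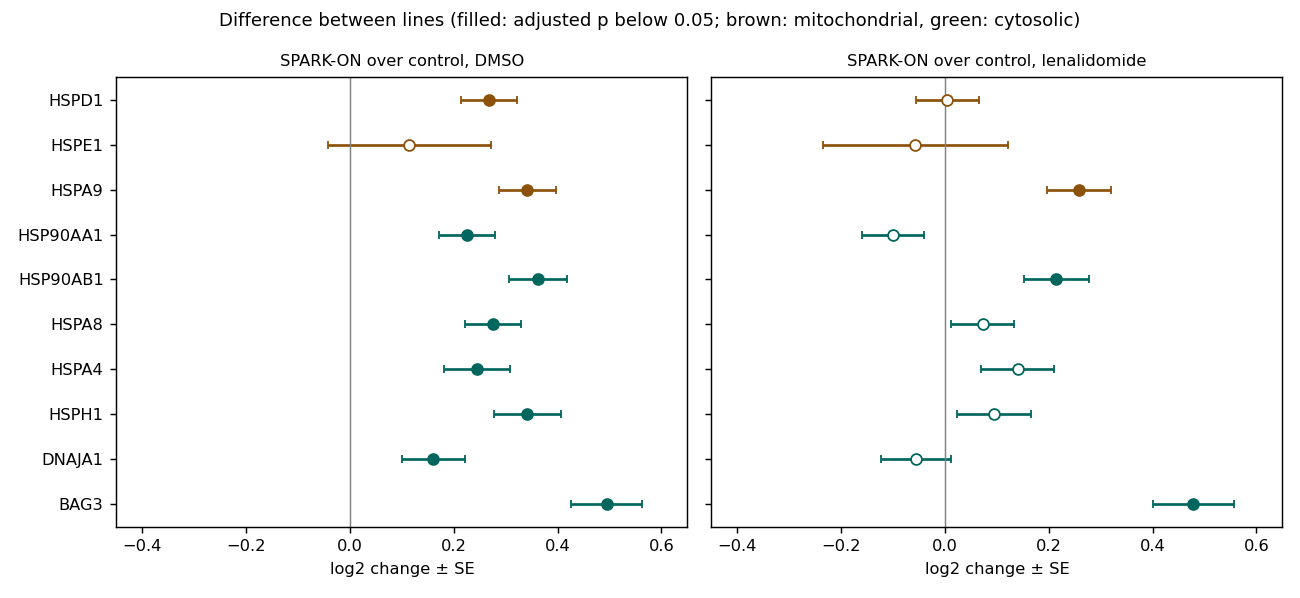
Log2 change of SPARK-ON over control cells with its SE for each of the 10 genes, in DMSO (left) and with lenalidomide (right). Filled points passed an adjusted p of 0.05: 9 genes in DMSO, and HSPA9, HSP90AB1 and BAG3 with lenalidomide.

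Lenalidomide was set against DMSO in SPARK-ON cells to follow the genes when n-Myc is brought to phase separate. All 10 genes had a negative log2 change, as did 48.2% of all genes tested, and none passed an adjusted p of 0.05 in edgeR, where 0.0685% of all genes passed. The changes ran from -0.17 to -0.04 with a median of -0.096, against 0.0065 over all genes tested. HSPD1 had the most negative, -0.17 (SE 0.054, unadjusted p = 0.00521, adjusted p = 0.635), with 1775 ± 32.3 CPM with lenalidomide and 1999 ± 39.7 CPM in DMSO (SD, n = 3 each). HSP90AB1 followed with -0.15 (SE 0.056, unadjusted p = 0.0168, adjusted p = 0.812), with 2609.5 ± 105 CPM with lenalidomide and 2889.6 ± 28.2 CPM in DMSO (SD, n = 3 each). These were the 2 genes at an unadjusted p below 0.05, in a direction taken by 1.73% of all genes at that p. For 7 genes, all but HSPE1, HSPH1 and BAG3, every lenalidomide library was below every DMSO library, as for 8.17% of all genes.

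The calls for HSPD1 and HSP90AB1 differed between fits. Estimated from all 4 groups together, the biological coefficient of variation was 9.4%. Estimated within each line it was 4.71% for SPARK-ON cells and 12.9% for control cells. A fit limited to the 6 SPARK-ON libraries called both genes as lower, HSPD1 at -0.18 (SE 0.035, adjusted p = 0.000742) and HSP90AB1 at -0.15 (SE 0.035, adjusted p = 0.00462). In that fit 2.6% of 14652 genes passed in either direction and 0.805% as lower. It also differs in the genes tested and in scaling, and which of these moved the calls was not tested. Limma-voom with sample quality weights, an alternative chosen after seeing the data, called the same genes at adjusted p = 0.00954 and 0.0324. DESeq2 and limma-voom without weights called none of the 10.

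Lenalidomide was also set against DMSO in control cells, which per the series design serve to judge the agent without SPARK-ON. No gene of the 10 passed in edgeR, where 0.0436% of all genes did. HSP90AA1 had a log2 change of 0.23 (SE 0.060, unadjusted p = 0.00136, adjusted p = 0.459), with 5492 ± 339.8 CPM with lenalidomide and 4688 ± 149 CPM in DMSO (SD, n = 2 and 3). HSPH1 had 0.21 (SE 0.071, unadjusted p = 0.00846, adjusted p = 0.865), with 664 ± 34.5 CPM with lenalidomide and 574 ± 35.8 CPM in DMSO (SD, n = 2 and 3). These were again 2 genes at an unadjusted p below 0.05, and 2.88% of all genes were at that p as higher. HSPA8, DNAJA1, HSPE1 and HSPD1 had changes between 0.09 and 0.11, and those of HSPA9, HSP90AB1, HSPA4 and BAG3 lay between -0.03 and 0.0044. Both lenalidomide libraries were above all 3 DMSO libraries for HSPD1, HSP90AA1, HSPA8, HSPH1 and DNAJA1, as for 7.69% of all genes. DESeq2, limma-voom with or without weights, and a fit limited to the 5 control libraries also called none. That limited fit, an edgeR quasi-likelihood test, had a biological coefficient of variation of 12.9%. In it HSP90AA1 had a log2 change of 0.23 (SE 0.093, unadjusted p = 0.0311). HSPH1 had 0.21 (SE 0.106, unadjusted p = 0.0715) and so was no longer below 0.05.

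**Figure D4:**
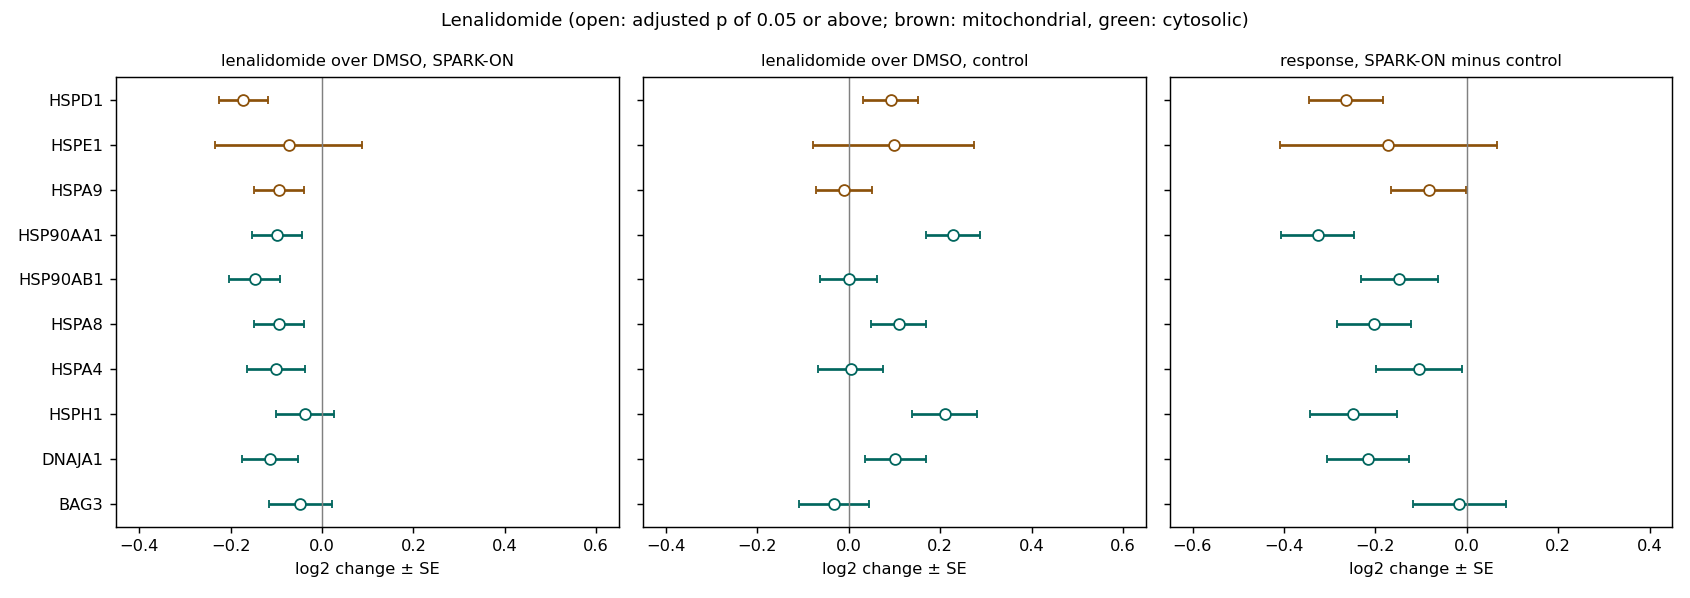
Log2 change with its SE for lenalidomide over DMSO in SPARK-ON cells (left) and in control cells (middle), and the difference between these responses (right). Open points mark an adjusted p of 0.05 or above, which holds for all 10 genes in all 3 panels. All 10 points lie below 0 in the left and right panels, and the SE bars of HSPE1, HSPH1 and BAG3 cross 0 in the left panel.

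The difference between the lines in the response was tested as an interaction, SPARK-ON minus control. None of the 16056 genes passed in edgeR, and 669 were at an unadjusted p below 0.05, which is 4.17%. All 10 chaperone genes had a negative difference, as did 49.1% of all genes, with a median of -0.19 against 0.0048 over all genes. HSP90AA1 had the most negative, -0.33 (SE 0.081, unadjusted p = 0.000802), which ranked 11 of 16056 by p. HSPD1 (-0.26), HSPH1 (-0.25), DNAJA1 (-0.22) and HSPA8 (-0.20) had unadjusted p between 0.00437 and 0.0282. Their adjusted p were all 1 after rounding, and DESeq2 and limma-voom with or without weights also called none of the 10 genes. Together with HSP90AA1 these were 5 genes at an unadjusted p below 0.05, in a direction taken by 1.89% of all genes at that p. BAG3 had the smallest difference, -0.02 (SE 0.103). The comparisons share their DMSO and lenalidomide libraries, so the signs of these values are not independent of the ones given above.

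The mitochondrial genes were set against the cytosolic ones within each library, as the difference of their mean log2 CPM. The difference was -1.24 ± 0.088 in SPARK-ON cells with lenalidomide, -1.22 ± 0.015 in SPARK-ON cells in DMSO, -1.19 ± 0.0013 in control cells with lenalidomide and -1.17 ± 0.157 in control cells in DMSO (SD, n = 3, 3, 2 and 3). The groups differed by less than the pooled SD within groups, 0.0968. Without HSPE1 the difference was 0.49 ± 0.011, 0.53 ± 0.022, 0.48 ± 0.032 and 0.53 ± 0.028 in the same order of groups. In SPARK-ON cells it then ran from 0.483 to 0.505 with lenalidomide and from 0.515 to 0.557 in DMSO. In control cells it ran from 0.459 to 0.504 with lenalidomide and from 0.505 to 0.56 in DMSO. Without HSPE1 the lenalidomide libraries were thus the lower ones in both lines, with no overlap. The gene that stood apart differed by line. In SPARK-ON cells HSPD1 changed by -0.17 and HSPA9 by -0.095, against a cytosolic median of -0.098. In control cells HSPD1 changed by 0.092 and HSPA9 by -0.011, against a cytosolic median of 0.10. The separation is therefore not a shared shift of both mitochondrial genes. In control cells the gap was narrow, with the nearest libraries at 0.5044 and 0.5055. With HSPE1 included, the treatments overlapped in both lines. How often such a separation arises for other sets of genes was not computed. The lines overlapped under each treatment. The sum of all 10 genes, in contrast, did not overlap between any of the groups. That sum was 16098 ± 173 CPM in SPARK-ON cells with lenalidomide, 17383 ± 213 in SPARK-ON cells in DMSO, 15608 ± 248 in control cells with lenalidomide and 14347 ± 11.7 in control cells in DMSO (SD, n = 3, 3, 2 and 3). It weighs genes by their level, so HSP90AA1, HSPA8 and HSP90AB1 count most, with means of 5170, 3122 and 2522 CPM. How often sums over other sets of genes separate the groups was not computed.

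Ratios between genes of a compartment were also compared. HSPD1 had 1.34 ± 0.017 times the CPM of HSPA9 in SPARK-ON cells with lenalidomide, 1.42 ± 0.0081 in SPARK-ON cells in DMSO, 1.60 ± 0.0027 in control cells with lenalidomide and 1.49 ± 0.025 in control cells in DMSO (SD, n = 3, 3, 2 and 3). No library of one group overlapped with another in this ratio. HSP90AA1 had 1.97 ± 0.108, 1.90 ± 0.044, 2.45 ± 0.287 and 2.09 ± 0.081 times the CPM of HSP90AB1 in the same order of groups. The control lenalidomide libraries stood highest, at 2.65 and 2.25. The ratios of HSPA4 and of HSPH1 to HSPA8 overlapped between all groups, with group means of 0.154 to 0.165 and 0.204 to 0.222. BAG3 averaged 0.0586 and 0.0569 times HSPA8 in SPARK-ON cells with lenalidomide and in DMSO, and 0.0442 and 0.0488 in control cells. How often ratios of other gene pairs separate the groups was not computed.

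**Figure D5:**
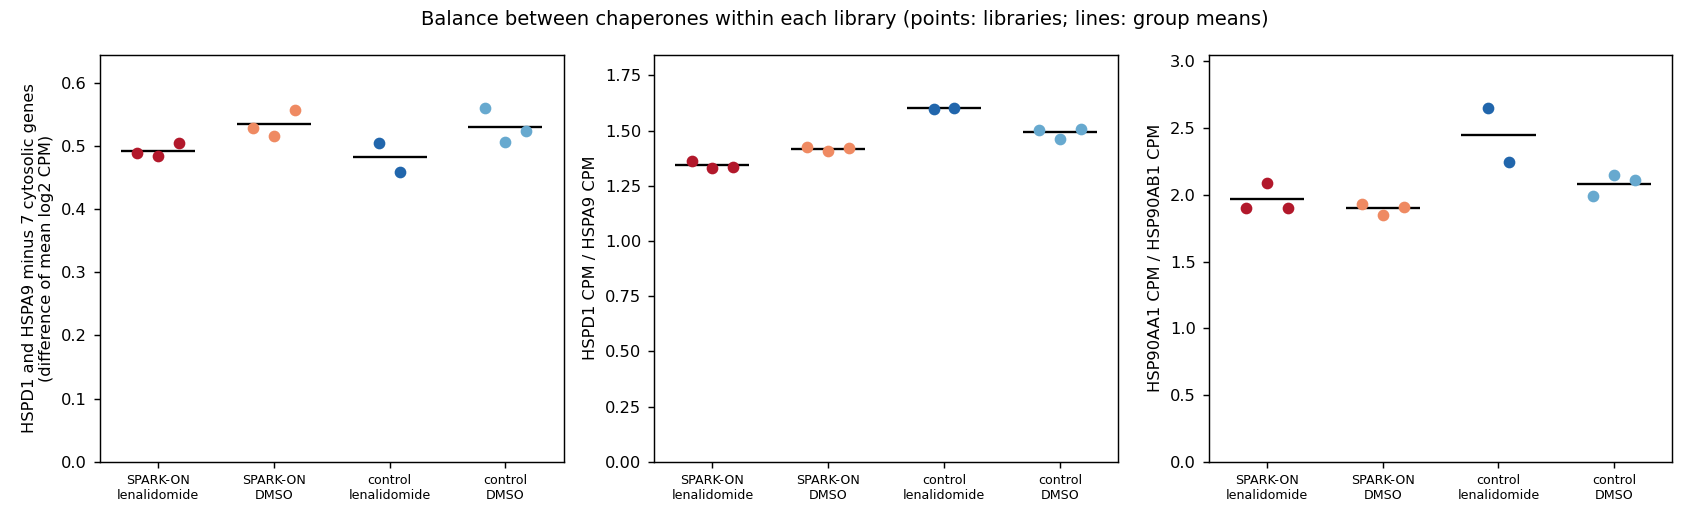
Per library, the mean log2 CPM of HSPD1 and HSPA9 minus that of the 7 cytosolic genes (left), the ratio of HSPD1 to HSPA9 CPM (middle) and the ratio of HSP90AA1 to HSP90AB1 CPM (right), with lines for group means. The left panel overlaps between lines, and the middle panel separates all 4 groups.

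The rest of the chaperone network was described by 8 lists with 97 genes. In the lenalidomide comparisons, and in the difference between them, no listed gene passed in edgeR in either line. At an unadjusted p below 0.05 in SPARK-ON cells, 3 of 12 other cytosolic HSP70 and J-domain genes, 2 of 13 HSP90 co-chaperones and 1 of 14 in TRiC and prefoldin were lower, beside 1.73% of all genes. In the higher direction there was 1 of 15 endoplasmic reticulum chaperones, beside 3.62% of all genes. In control cells 1 co-chaperone and 1 other mitochondrial gene were lower at that p, beside 1.94% of all genes, and 1 endoplasmic reticulum chaperone was higher, beside 2.88%. In SPARK-ON cells with lenalidomide over DMSO, the median log2 change was -0.10 for the TRiC chaperonin and prefoldin, which fold actin and tubulin, with 2 of 14 genes positive. It was -0.093 for HSP90 co-chaperones with 3 of 13 positive, -0.074 for other mitochondrial chaperones and proteases with 3 of 15 positive, and 0.025 for chaperones of the endoplasmic reticulum with 10 of 15 positive. Stress-inducible genes had -0.086 with 1 of 6 positive, and other cytosolic HSP70 and J-domain genes -0.050 with 4 of 12. BAG family and HSP70 cofactors had -0.0023 with 4 of 8 positive, and heat shock factors and regulators 0.00028 with 3 of 6. Over all genes tested, 51.7% were positive and the median was 0.0065. The members with the smallest unadjusted p were DNAJC2 (log2 change -0.27) and HSPA4L (-0.22) among other cytosolic HSP70 partners, FKBP4 (-0.17) among co-chaperones and TCP1 (-0.13) in TRiC. HSPA5, the HSP70 of the endoplasmic reticulum, had a log2 change of 0.13. Their adjusted p lay between 0.696 and 0.924.

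Between the lines in DMSO, the stress-inducible genes were divided: of 6 tested, 4 rose and 2 fell in SPARK-ON cells. HSPB8, the small heat shock protein that works with BAG3, was at 134, 136 and 135 CPM in SPARK-ON cells in DMSO, against 33.2, 28.4 and 30.5 CPM in control cells in DMSO (log2 change 2.14, adjusted p = 1.56e-12). HSPB1 also rose, to 421 ± 13.6 CPM in SPARK-ON cells, against 271 ± 49.0 CPM in control cells (SD, n = 3 each, log2 change 0.63, adjusted p = 7.47e-05). The opposite held for DNAJB1, a J-domain partner of HSP70 that is strongly induced by heat, with 208, 208 and 214 CPM in SPARK-ON cells, against 310.2, 274 and 276 CPM in control cells (log2 change -0.45, adjusted p = 3.52e-05). CRYAB, a small heat shock protein of muscle and lens, had a log2 change of -2.79 (adjusted p = 6.88e-06) at levels of at most 4.30 CPM. HSPA1A had 1 count and HSPA1B, its near-identical copy, had 0 counts over all libraries. How reads that match both copies were counted is not known here, so these counts do not show whether either gene was expressed. HSF1 stood at 126 ± 4.97 CPM in SPARK-ON cells in DMSO and 129 ± 3.38 CPM in control cells in DMSO (SD, n = 3 each). HSBP1, which binds and restrains HSF1, fell with a log2 change of -0.46 (adjusted p = 0.000114).

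Of 15 other mitochondrial chaperones and proteases, 4 rose and 4 fell in SPARK-ON cells in DMSO. The matrix proteases LONP1 (log2 change -0.58, adjusted p = 3.65e-06) and CLPP (-0.82, adjusted p = 6.14e-06) fell, in contrast to HSPD1 and HSPA9. Among 13 HSP90 co-chaperones 3 rose and 3 fell, with FKBP8 at -0.94 (adjusted p = 7.83e-07) and PPP5C at -0.44 (adjusted p = 3.71e-05). In the BAG family and HSP70 cofactors 1 of 8 rose, BAG2 (0.44, adjusted p = 0.000188), and 4 fell, among them BAG5 (-0.43, adjusted p = 0.000206). Of 15 endoplasmic reticulum chaperones 5 fell and none rose, with HSP90B1 at -0.36 (adjusted p = 0.000121), CALR at -0.32 (adjusted p = 0.000657) and HSPA5 at -0.18 (adjusted p = 0.0241). In TRiC and prefoldin 1 of 14 passed, CCT6A at -0.16 (adjusted p = 0.0434), and among 12 other cytosolic HSP70 and J-domain genes 3 rose, led by HSPA12A (0.99, adjusted p = 1.51e-06). Of 6 heat shock factors and regulators, HSBP1 alone passed. These shares lie beside 21.1% of all genes called higher and 20.4% called lower in this comparison.

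With lenalidomide in both lines, HSPB8 (log2 change 2.20, adjusted p = 1.34e-11) and DNAJB1 (-0.56, adjusted p = 1.1e-05) again moved in opposite directions in SPARK-ON cells. The stress-inducible list had 3 of 6 tested genes higher and 2 lower, the other mitochondrial genes 4 of 15 higher and 4 lower, and the HSP90 co-chaperones 1 of 13 higher and 3 lower. BAG family and HSP70 cofactors had 2 of 8 higher and 4 lower, endoplasmic reticulum chaperones 2 of 15 higher and 4 lower, and other cytosolic genes 2 of 12 higher and 1 lower. CCT6A was lower in TRiC (-0.36, adjusted p = 0.000258), and HSBP1 was lower among the heat shock factors and regulators (-0.50, adjusted p = 0.000182). Over all genes tested, 19.7% were called higher and 19.7% lower in this comparison.

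Likeness of pattern was measured as the root mean square difference of log2 CPM, centred on each gene's mean, over the 11 libraries and 10637 other genes with at least 5 CPM. The genes most like HSPD1 were UQCRC2 (0.042), HSPA8 (0.045), CYRIB (0.051), KPNA5 (0.052) and NDUFS1 (0.054), against a median of 0.219 over all genes. UQCRC2 and NDUFS1 encode subunits of the respiratory chain. Those most like HSPH1 were TTC27 (0.055), ABITRAM (0.058), SCARB2 (0.063), AAGAB (0.064) and USP46 (0.064), against a median of 0.244. Among the 10 genes, HSPA9 and HSP90AB1 formed another close pair (0.046), across compartments. HSPE1 and BAG3 were the farthest apart (0.317), and HSPE1 was at least 0.192 from every other member. The measure includes scatter between replicates, and HSPE1 ran from 29.1 to 52.9 CPM within control cells in DMSO. The part of this scatter in its distances was not tested.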

How the data were processed

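Gene counts from 11 RNA-seq libraries of SH-EP cells were used. The values are raw counts per gene as deposited by the authors, and per the submitters' processing notes FastQC, fastp, HTSeq, edgeR and the hg38 genome were used. No source used here names their versions, an aligner, an annotation release or a strand setting. Of 14 columns, 3 did not match the labels of a sample and were not used, so comparisons with baseline cells, though planned, are left out. Identifiers were matched to symbols for 61415 of 61533 genes.

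The analysis used edgeR 4.0.16 under R 4.3.3: filterByExpr with a minimum count of 10 left 16056 genes, TMM scaled the libraries, and a one-way layout of 4 groups with 7 residual degrees of freedom was tested two-sided by glmQLFTest. P-values were adjusted by Benjamini-Hochberg over all 16056 genes at a threshold of 0.05. CPM are relative to TMM-scaled library sizes, and CPM per kb use the summed exon length of GENCODE 29. SE is derived from the log2 change and its F statistic. Alternatives were other scalings and filters, DESeq2 1.42.0, limma-voom (limma 3.58.1), a replicate block, fits limited to the groups compared, a threshold of 0.01 and omission of each library. Sample quality weights, and omission of both libraries that stand apart, were added after seeing the data. The procedure was tested on simulated data.

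The 10 members and the lists were chosen with earlier results of these data known. Named genes are the 10 members, per list those with the smallest p, and HSF1, HSPA1A, HSPA1B, DNAJB1, HSPA5, MYCN and MYC. HSPB1 and close pairs among the members were named after their values were seen. The labels do not say whether replicates are separate cultures, so p-values measure the spread between these samples, which may be technical.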

Additional observations from a re-analysis of the deposited data

How the results depend on the processing

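Counts of calls stayed within 1.5 times the reported ones, and mitochondrial minus cytosolic differences within 1 pooled SD (0.0968), in 176 cases and not in 4, whose cause was not tested. Lenalidomide over DMSO in SPARK-ON cells called 2 genes with only the groups compared and 2 with sample quality weights, against 0. SPARK-ON over control with lenalidomide called 6 with library size alone, against 3, and its mitochondrial minus cytosolic difference was 0.0749 from the ratio of summed CPM, against -0.0537. The sign of these differences is not settled: omitting single libraries gave -0.051 to 0.027 for lenalidomide in SPARK-ON cells, -0.089 to 0.067 in control cells, -0.12 to 0.037 between lines in DMSO and -0.091 to 0.066 for the response difference, and summed CPM gave 0.023 between lines in DMSO, against -0.046. Signs of single genes near 0 turned. For lenalidomide in control cells, HSP90AB1 was -1.5e-05 with RLE scaling, -0.0059 with library size alone, -0.0011 with no filter, -0.0030 at a minimum count of 50 and -0.00035 in limma-voom, and HSPA4 was -0.0017 with library size alone, -0.016 with quality weights and -0.035 without both libraries that stand apart. For SPARK-ON over control with lenalidomide, library size alone gave 0.049 for HSPE1, 0.0039 for HSP90AA1 and 0.050 for DNAJA1, and HSPD1 was -0.014 with no filter and -0.0047 without both libraries. With both left out, BAG3 had a response difference of 0.0051. Omitting single libraries gave HSPE1 a range of -0.17 to 0.068 for lenalidomide in SPARK-ON cells, -0.095 to 0.34 in control cells, -0.079 to 0.35 between lines in DMSO, -0.15 to 0.086 between lines with lenalidomide and -0.41 to 0.022 for the response difference. For lenalidomide in control cells it gave HSPA9 -0.034 to 0.0050, HSP90AB1 -0.065 to 0.056, HSPA4 -0.035 to 0.032 and BAG3 -0.10 to 0.031. It gave HSPD1 -0.022 to 0.025 between lines with lenalidomide, and BAG3 -0.081 to 0.049 for the response difference. Calls between lines then numbered 8 to 10 in DMSO and 2 to 3 with lenalidomide. Same-numbered libraries did not deviate together (r between -0.18 and 0.037). With 2 or 3 libraries per group this cannot decide whether the numbers pair the samples. With a replicate block the calls were 8 between lines in DMSO, DNAJA1 being lost at adjusted p = 0.0815, 3 with lenalidomide and 0 otherwise, and HSPD1 and HSPE1 between lines with lenalidomide were -0.0024 and 0.0065. HSPE1 had at most 975 counts per library, and the part of depth or shared exons in its spread was not tested.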
